A study of Mus musculus with 7 samples.

Results

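The voltage-gated calcium channel genes were followed here through peak lists of Fos, an activity-induced protein of neurons that binds DNA within the AP-1 complex. Chromatin immunoprecipitation with an anti-Fos antibody and sequencing (ChIP-seq) had been run on mouse hippocampus after saline or after kainic acid, which activates glutamate receptors and causes seizures. All animals were wild-type C57BL/6J mice aged 2 months. Those given kainic acid received 2 intraperitoneal injections of 10 mg/kg, 30 min apart, and were taken 1 hour after the first one, with seizures of level 4. Each group had 3 libraries, with 1 list of peaks per library, and 1 input library was not analysed here. The number of animals behind a library is not in the labels, so the spread given below is that between libraries and may be technical. The 10 genes, of 21883 protein-coding genes with a position in build GRCm38, were Cacna1a, Cacna1b, Cacna1c, Cacna1d, Cacna1e, Cacna1g, Cacna1h, Cacna1i, Cacna2d1 and Cacna2d3. They were chosen by name, and a peak was counted for a gene when any of its bases lay in the gene's span or within 10 kb of it.

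Voltage-gated calcium channels open on depolarisation and let calcium into the cell, where it triggers transmitter release and starts signalling to the nucleus. The pore is a single large α1 subunit, which sets the channel type. Cacna1c and Cacna1d encode the L-type pores, which couple activity to transcription in neurons. Cacna1a, Cacna1b and Cacna1e encode the P/Q-, N- and R-type pores, of which the first and second carry most of the calcium for fast transmitter release. Cacna1g, Cacna1h and Cacna1i encode the T-type pores, which open at low voltages and support burst firing. Cacna2d1 and Cacna2d3 encode α2δ subunits, extracellular partners that bring channels to the membrane. The AP-1 complex binds DNA at the site TGANTCA.

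Of the 10 promoter windows known for these genes, 3 had a peak of any list, against 14.2% of all 32851 promoter windows, and these 3 are shown because they are where the lists bear on a start site. A window reaches from 250 bases before to 50 bases after a RefSeq start (build GRCm38.p6). Such windows were given for 7 of the 10 genes, all but Cacna1a, Cacna1g and Cacna1h. Sequences run 5′ to 3′ on the gene's strand, and capitals mark the bases under the peaks of every list that had one. The first is an internal start of Cacna1c (chr6:118757925-118758224, minus strand), where all 3 kainic acid lists had a peak. The second is the start of Cacna2d3 (chr14:29721815-29722114, minus strand), with a peak of saline replicate 2 and none of kainic acid. The third is the start of Cacna1i (chr15:80286988-80287287, plus strand), with a peak of kainic acid replicate 2 alone.
Cacna1c internal start: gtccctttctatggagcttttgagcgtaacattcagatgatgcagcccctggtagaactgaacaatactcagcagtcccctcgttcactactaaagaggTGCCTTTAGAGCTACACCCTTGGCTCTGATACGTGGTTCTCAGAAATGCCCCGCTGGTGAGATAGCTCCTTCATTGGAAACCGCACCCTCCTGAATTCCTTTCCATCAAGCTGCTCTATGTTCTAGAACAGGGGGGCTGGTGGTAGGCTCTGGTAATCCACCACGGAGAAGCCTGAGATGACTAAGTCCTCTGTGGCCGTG
Cacna2d3 start: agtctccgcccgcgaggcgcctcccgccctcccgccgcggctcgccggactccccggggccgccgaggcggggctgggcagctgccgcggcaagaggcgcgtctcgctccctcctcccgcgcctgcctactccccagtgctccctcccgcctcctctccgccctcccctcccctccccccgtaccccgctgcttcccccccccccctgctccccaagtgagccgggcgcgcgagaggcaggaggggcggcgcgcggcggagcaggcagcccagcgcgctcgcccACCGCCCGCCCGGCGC
Cacna1i start: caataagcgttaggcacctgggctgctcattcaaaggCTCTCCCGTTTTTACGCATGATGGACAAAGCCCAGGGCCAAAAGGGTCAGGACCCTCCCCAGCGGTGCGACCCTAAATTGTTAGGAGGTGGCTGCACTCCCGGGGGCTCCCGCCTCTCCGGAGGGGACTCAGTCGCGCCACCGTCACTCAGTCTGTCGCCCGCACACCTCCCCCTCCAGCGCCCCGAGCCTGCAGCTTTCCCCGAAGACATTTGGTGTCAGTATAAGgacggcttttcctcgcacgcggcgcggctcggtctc
Neither TGANTCA nor TGACGTCA, the cyclic AMP response element, occurred on either strand of the 10 windows. These 2 motifs cannot be one another, and each reads the same on both strands. Over all 32851 promoter windows, 7.81% held TGANTCA and 1.79% held TGACGTCA. The absence says only that these letters are not in these windows. A window with a region found in at least 2 kainic acid lists was 1 of 10 for the calcium channel genes and 4.67% of all windows. A window with a saline peak was likewise 1 of 10, against 4.78% of all.

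The lists differed widely in length, with 7, 3277 and 2 peaks for saline replicates 1, 2 and 3 and 15009, 63197 and 29650 peaks for kainic acid replicates 1, 2 and 3. Counts for a gene follow these lengths, and the read totals are unknown, so a gene with no peak in a list was not called there at that depth. Overlapping peaks of the 6 lists (1 bp or more in common) were joined into regions. The deposited fold, the authors' own value of a peak over its local background, was used only to rank peaks within a list. As the tissue was taken whole, a strong signal in few cells and a weak one in many cannot be told apart. Of 5 marker genes each, 5 of neurons, 3 of astrocytes, 2 of oligodendrocytes, 2 of endothelium and 1 of microglia had a region in at least 2 kainic acid lists, against 40.0% of all protein-coding genes. The lists differ in gene length, as 3 of the 5 neuron markers span over 100 kb and 0 of the astrocyte and microglia markers do. Peak lists hold no RNA, so the labelled tissue was not checked by expression.

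Fos peaks at the calcium channel genes were found mostly after kainic acid, and every gene had some. The number within 10 kb of the 10 genes was 56, 256 and 125 in kainic acid replicates 1, 2 and 3 and 0, 13 and 0 in saline replicates 1, 2 and 3. Each kainic acid list thus held more than any saline list, and all of the saline peaks came from replicate 2. The mean log10(number + 1) was 2.09 ± 0.327 (SD, n = 3) after kainic acid and 0.382 ± 0.662 (SD, n = 3) after saline, a difference of 1.71 that exceeded both SDs. By a two-sided exact permutation test p was 0.1, and groups of 3 cannot give less. Without saline replicate 2 the difference was 2.09. These peaks were 0.373%, 0.405% and 0.422% of the kainic acid lists and 0.397% of the list of saline replicate 2, which differ little.

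A region found in at least 2 kainic acid lists lay within 10 kb of 10 of 10 calcium channel genes, against 40.0% of all protein-coding genes. These are long genes, 8 of the 10 spanning over 100 kb, and 81.6% of the 2428 protein-coding genes of that length had such a region. A region in all 3 lists was present at 9 of the 10, all but Cacna1g, against 23.9% of all protein-coding genes and 64.3% of the long ones. Every kainic acid list exceeded every saline list at 6 of the 10 genes (Cacna1c, Cacna1d, Cacna1e, Cacna1i, Cacna2d1 and Cacna2d3). That was so for 20.7% of all protein-coding genes and 62.4% of the long ones. All 6 are among the 8 channel genes over 100 kb, the set to hold against the second share.

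In all, 112 regions in at least 2 kainic acid lists lay at the 10 genes, and Cacna1c and Cacna1e held 63 of them, 56.2% of the regions in 30.8% of the length searched. Leaving out kainic acid replicate 2 gave 46 regions in place of 112 and leaving out replicate 3 gave 50, so the numbers here rest on those 2 lists. The gene ranks below were not recomputed with a list left out. The other genes had 17 (Cacna2d3), 14 (Cacna1d), 6 (Cacna2d1), 4 (Cacna1a), 3 (Cacna1b), 2 (Cacna1h), 2 (Cacna1i) and 1 (Cacna1g). The median was 5 regions per gene, against 0 over all protein-coding genes and 3 over those longer than 100 kb. Per 100 kb of window the median was 1.85 regions for the channel genes and 1.21 for long protein-coding genes. Among the 21883 protein-coding genes, Cacna1c ranked 16 by number of regions, Cacna1e 36, Cacna2d3 107 and Cacna1d 164. By regions per 100 kb, Cacna1c ranked only 1444 and Cacna1e 1487. Short genes with several regions reached higher values, such as Tuba4a (6290 bp, 5 regions, 19.0 per 100 kb). So did long genes, such as Map2 (267 kb, 5.92) and Syt1 (513 kb, 5.81).

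**Figure D1:**
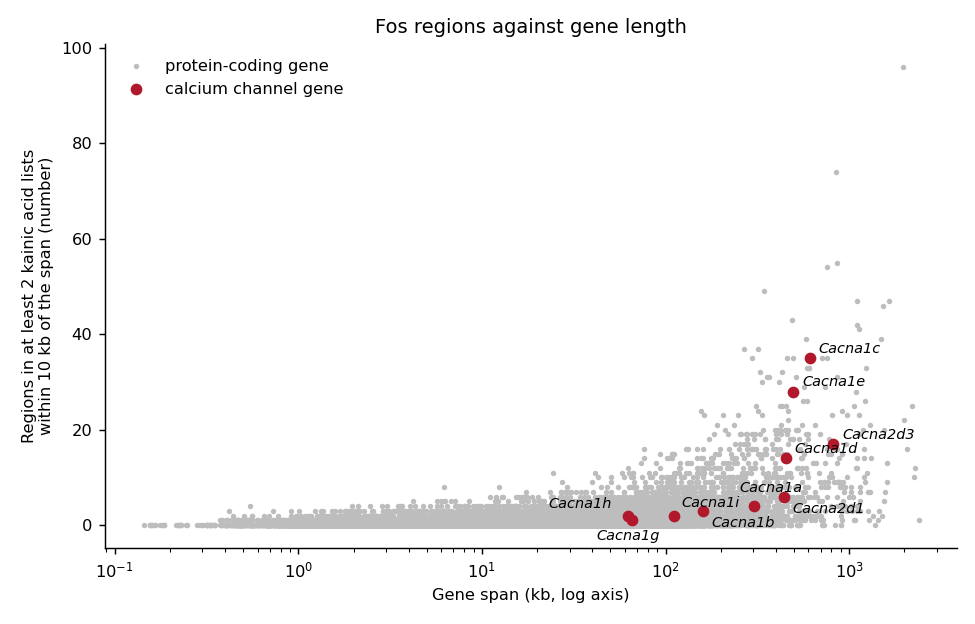
Number of regions shared by at least 2 kainic acid lists around a gene plotted against the gene's span in kb on a log axis, with 1 grey point per protein-coding gene and the 10 calcium channel genes in red. Cacna1c with 35 regions and Cacna1e with 28 lie above the other channel genes, and Cacna2d3, the longest at 818 kb, has 17.

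To set the 3 kainic acid lists on one scale, the peaks per 100 kb at a gene were divided by the peaks per 100 kb at all protein-coding genes in the same list. For the 10 genes together this relative density was 1.78, 1.85 and 1.96 in replicates 1, 2 and 3, a mean of 1.86 ± 0.0880 (SD, n = 3). All 3 libraries thus placed the channel genes above the average of coding genes, though not evenly over the family. Against protein-coding genes over 100 kb alone the mean was 1.70 ± 0.137 (SD, n = 3). Cacna1c and Cacna1e carried most of the excess, and without both the mean was 1.20 ± 0.0945 (SD, n = 3). That last value was computed after the values of the genes had been seen. In saline replicate 2, from 13 peaks, the 10 genes had a density of 1.46 relative to all protein-coding genes and of 3.47 relative to the long ones. Saline replicate 2 thus lay below each kainic acid list against the first reference and above each of them (1.54, 1.78 and 1.77) against the second. Of its 13 peaks, however, 5 lay at Cacna1h and 2 at Cacna1g. These genes span 62.05 and 66.01 kb, so they are shorter than every gene of the second reference. The saline value without them was not computed.

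Cacna1c led the order with a relative density of 3.47 ± 0.257 (SD, n = 3), followed by Cacna1e with 3.19 ± 0.105 and Cacna1h with 2.20 ± 0.737. The steps from Cacna1c to Cacna1e, from Cacna1e to Cacna1h and from Cacna1h to Cacna1d were each larger than the larger SD of the pair. The first step did not hold in every library, since Cacna1e was higher in replicate 1 (3.22 against 3.19). Nor did the step from Cacna1h to Cacna1d, since Cacna1d was higher in replicate 3 (1.73 against 1.42). The values of Cacna1h come from only 2, 7 and 2 peaks. Cacna1d (1.42), Cacna2d1 (1.23), Cacna2d3 (1.22), Cacna1i (1.17), Cacna1a (0.873), Cacna1g (0.848) and Cacna1b (0.843) came next, and no neighbours in this stretch differed beyond their spread.

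**Figure D2:**
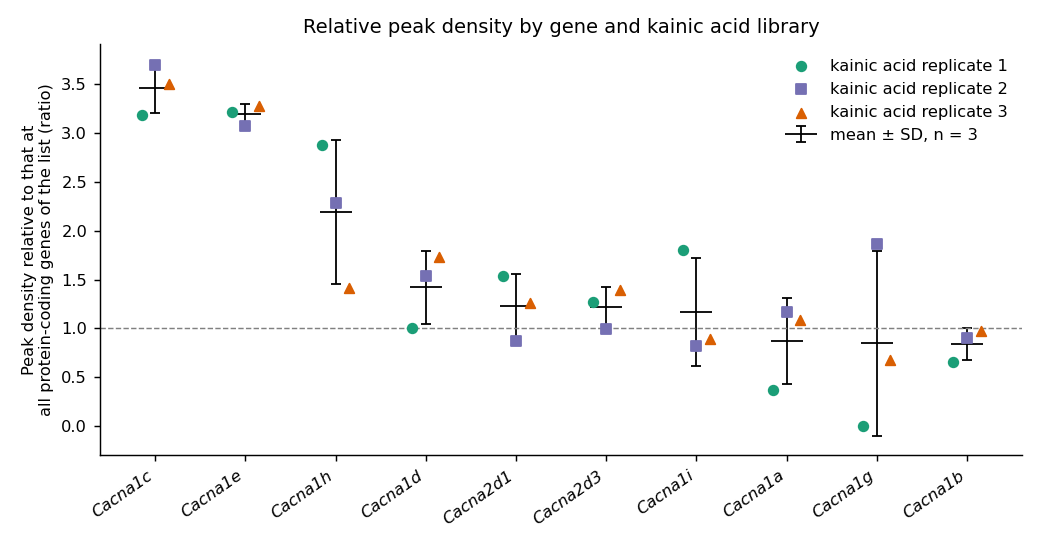
Peaks per 100 kb at each gene divided by the peaks per 100 kb at all protein-coding genes of the same list, as a ratio, with 1 symbol per kainic acid library and a black bar with whiskers for the mean ± SD (n = 3). The 3 values of Cacna1c (3.19 to 3.70) and of Cacna1e (3.08 to 3.28) lie above those of the other 8 genes, while the values of Cacna1g run from 0 to 1.87 around the dashed line at 1.

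Of the L-type genes, Cacna1c (gene ID 12288, chr6:118587240-119197384) had 17, 87 and 38 peaks in kainic acid replicates 1, 2 and 3 and 0, 1 and 0 in saline replicates 1, 2 and 3. The groups did not overlap. Its 35 regions in at least 2 lists comprised 13 in all 3, and a further 53 regions had a peak in 1 list, 49 of them in replicate 2. Without kainic acid replicate 2 the number was 13 and without replicate 3 it was 14. With the gene cut into 3 equal parts, 14 regions had their midpoint in the 5′ part, 12 in the middle and 8 in the 3′ part. The densest 100 kb, starting at position 118932890, held 13 regions, and the median distance between neighbouring regions was 10.2 kb. The region of best mean rank (chr6:118680480-118681595) had a fold of 6.88, 8.69 and 10.3 in replicates 1, 2 and 3, with 42, 51 and 68 reads over the summit.

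Start sites of Cacna1c had weak regions. The region over the internal start printed above (chr6:118757626-118758165) was in all 3 kainic acid lists but weak, with folds of 3.84, 3.78 and 3.58 and 15, 13 and 17 reads. Its summit lay 136 bases upstream of that start in replicate 1 and 26 and 230 bases downstream in replicates 3 and 2. A region 0.397 kb from another start (chr6:119108892-119109314) was in replicates 2 and 3 only, with folds of 3.07 and 3.26. The flank also held a region (chr6:119198331-119199024) that lies in the span of the neighbouring gene Dcp1b, which encodes an mRNA decapping factor, and this was the only one of the 112 over another protein-coding gene.

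Cacna1d (gene ID 12289, chr14:30039941-30491156), the other L-type gene of the 10, had 4, 27 and 14 peaks in kainic acid replicates 1, 2 and 3 and none after saline. The groups were fully apart. Of its 14 regions, 4 were in all 3 lists, and 4 were counted without replicate 2 and 4 without replicate 3. They were spread along the gene, with 4, 5 and 5 in the 5′, middle and 3′ parts. Its best region (chr14:30255541-30256769), 96.7 kb from the nearest listed start, ranked 237 of 15009, 744 of 63197 and 1130 of 29650 by fold. The folds were 10.2, 15.3 and 8.43, with 44, 65 and 42 reads over the summit. A weaker region lay 0.497 kb from an internal start (chr14:30353983-30354612), with folds of 5.18 and 3.61 in replicates 2 and 3.

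Cacna1e (gene ID 12290, chr1:154390806-154884785), the R-type gene, had 14, 59 and 29 peaks in kainic acid replicates 1, 2 and 3 and none in any saline list. It was second to Cacna1c in number although the gene is shorter, 494 kb against 610.1 kb. Its 28 regions in at least 2 lists included 11 in all 3, and 11 were counted without replicate 2 and 13 without replicate 3. Unlike the even spread in Cacna1d, 15 lay in the middle part, 4 in the 5′ part and 6 in the 3′ part. The densest 100 kb, starting at position 154619293, held 13. The region of best rank averaged over the lists was here (chr1:154676427-154677164), though it was first among the channel genes in no single list. It lay 48.8 kb from the only listed start, which is inside the span (position 154725920), and 207.6 kb from the nearest span end. Its folds were 9.91, 17.0 and 10.1, which ranked 280, 480 and 493 in replicates 1, 2 and 3, with 41, 63 and 51 reads over the summit. One region touched the upper end of the span (chr1:154884730-154885150), the 5′ end, 158.8 kb from the listed start. It was weak, with folds of 4.34 and 3.31 in replicates 2 and 3.

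The genes of the P/Q- and N-type pores had fewer regions. Cacna1a (gene ID 12286, chr8:84338631-84640251) had 1, 14 and 6 peaks in kainic acid replicates 1, 2 and 3 and 0, 1 and 0 in the saline lists. The groups touched, because kainic acid replicate 1 and saline replicate 2 had 1 peak each. Both peaks fell in the same region (chr8:84501489-84502247), the only one of its 4 in all 3 kainic acid lists and the only one counted without replicate 2 or without replicate 3. There the folds were 6.69, 12.04 and 8.78 in kainic acid replicates 1, 2 and 3 and 5.25 in saline replicate 2, with 38, 61 and 64 reads against 23. Folds of different libraries are not on one scale, so these values are given side by side only.

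Cacna1b (gene ID 12287, chr2:24603860-24763200) had 1, 6 and 3 peaks in kainic acid replicates 1, 2 and 3 and 1 in saline replicate 2, so the groups touched here as well. One of its 3 regions was in all 3 lists (chr2:24684813-24685955), with folds of 4.15, 6.79 and 5.83, and its mean percentile rank of 30.2 was modest. The percentile rank is 0 for the highest fold of a list and 100 for the lowest, averaged over the kainic acid lists with a peak. The other 2 regions ranked at 82.4 and 97.5, near the bottom of the lists, and they were not counted without kainic acid replicate 2 or 3. The saline peak (chr2:24679011-24679215) had no kainic acid peak over it.

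Among the T-type genes, Cacna1i (gene ID 239556, chr15:80287238-80398292) had 2, 4 and 2 peaks in kainic acid replicates 1, 2 and 3 and 0, 1 and 0 in the saline lists. The numbers were small, but 1 region stood out by rank (chr15:80303485-80304593), 16.2 kb from the start. Its folds of 23.5 and 14.1 ranked 90 of 63197 and 89 of 29650 in kainic acid replicates 2 and 3. In replicate 1 the fold was 5.21, ranked 4098 of 15009, a far lower place in that list. The reads over the summit were 27, 86 and 80, and saline replicate 2 also had a peak there, with a fold of 5.23 and 16 reads. The second region in all 3 lists (chr15:80278220-80278819) lay 8.42 kb outside the span.

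Cacna1h (gene ID 58226, chr17:25374285-25436334) had 2, 7 and 2 peaks in kainic acid replicates 1, 2 and 3 and 5 in saline replicate 2, so the groups overlapped. Per 100 kb this was the densest channel gene in saline, with 6.09 peaks. Of the 5 saline peaks, 4 had no kainic acid peak over them, and the fifth lay in a region of all 3 kainic acid lists (chr17:25410599-25411848). Its folds were 3.09, 6.19 and 5.97 after kainic acid and 4.31 in saline replicate 2. The second region in all 3 lists (chr17:25431534-25432128) had no saline peak, with folds of 4.56, 5.86 and 4.28.

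Cacna1g (gene ID 12291, chr11:94408391-94474400) had 0, 6 and 1 peaks in kainic acid replicates 1, 2 and 3 and 2 in saline replicate 2, again with overlap between the groups. Among the 10 it was the gene with the fewest regions. The only one in at least 2 lists (chr11:94454440-94455802) had folds of 6.60 and 3.83 in kainic acid replicates 2 and 3 and 5.60 in saline replicate 2. The count was 0 without either of those kainic acid libraries. The other saline peak was at the upper end of the span (chr11:94474391-94474802), where kainic acid replicate 2 had a fold of 2.91.

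The α2δ genes both had more peaks in every kainic acid list than in any saline list. Cacna2d1 (gene ID 12293, chr5:15934264-16374511) had 6, 15 and 10 peaks in kainic acid replicates 1, 2 and 3 and none after saline. Its 6 regions were spread evenly, 2 in each part of the gene, and 3 were in all 3 lists. Leaving out kainic acid replicate 2 left 3 of them, and leaving out replicate 3 left 4. The best (chr5:16056223-16057382), 121.5 kb from the start, had folds of 8.18, 17.7 and 10.3 and ranked 677, 399 and 449 in replicates 1, 2 and 3. The reads over its summit were 34, 65 and 52.

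Cacna2d3 (gene ID 12294, chr14:28904943-29722775) had 9, 31 and 20 peaks in kainic acid replicates 1, 2 and 3 and 0, 2 and 0 in the saline lists. Of its 17 regions, 9 were in all 3 lists, and 9 were counted without replicate 2 and 9 without replicate 3. By midpoint 9 lay in the 5′ part, 5 in the middle and 2 in the 3′ part. Both saline peaks flanked the start printed above, at 0.0340 and 0.403 kb from it, and had no kainic acid peak over them. The nearest kainic acid region in all 3 lists (chr14:29722701-29723911) lay 0.837 kb from that start, with folds of 3.52, 9.02 and 4.63. The region of best mean rank (chr14:29557407-29557952) was in replicates 2 and 3 only, with folds of 9.45 and 6.55.

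**Figure D3:**
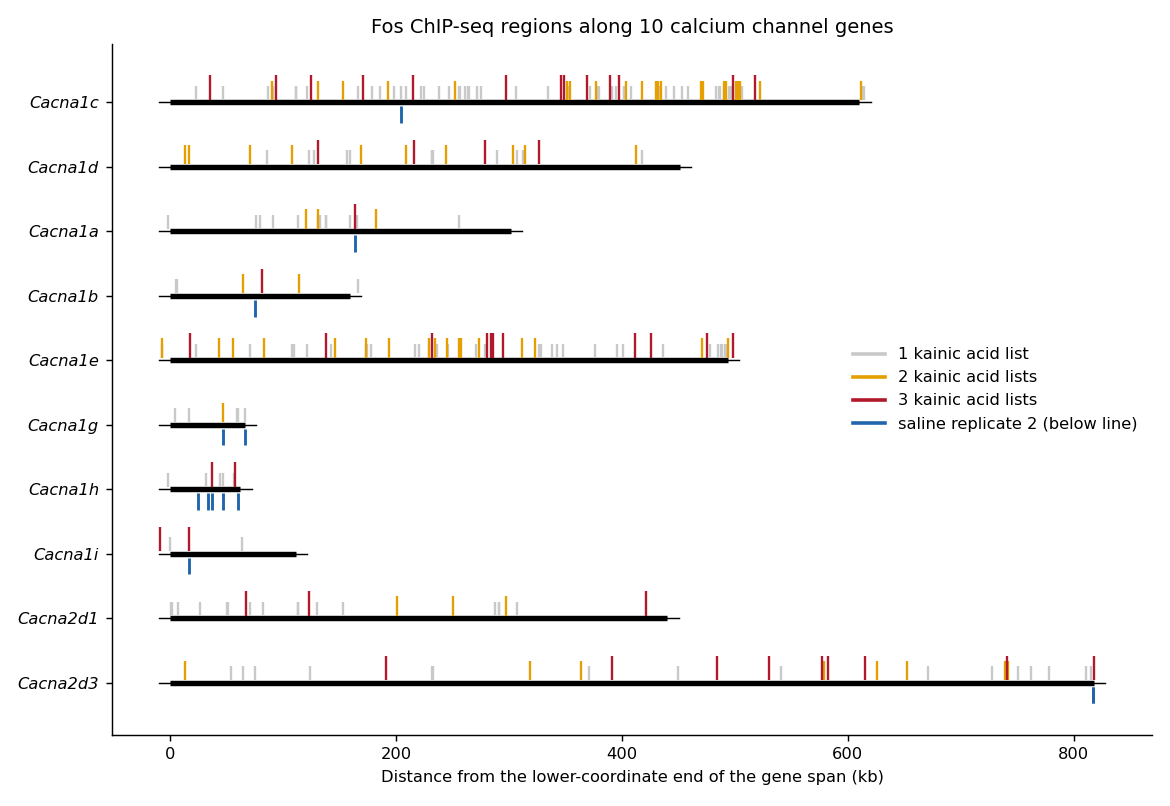
Each gene's span as a thick line with its 10 kb flanks as thin ends, by distance in kb from the lower-coordinate end; ticks above mark regions in 1 (grey), 2 (orange) or 3 (red) kainic acid lists and blue ticks below mark peaks of saline replicate 2. Regions crowd in Cacna1c and Cacna1e, with up to 13 in 100 kb, and 5 of the 13 saline ticks belong to Cacna1h.

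Replicate support at the channel genes was close to that over all regions, those away from genes included. Of the 270 merged regions with a kainic acid peak at the 10 genes, 112 were in at least 2 lists, 41.5% (95% Clopper-Pearson interval 35.5 to 47.6), against 40.3% of all 66683 such regions. Without kainic acid replicate 3 the share was 19.2%, against 21.1% of all regions. In all 3 lists were 46, 17.0% (12.8 to 22.1), against 17.9%. Of the 158 regions in 1 list, 139 were in kainic acid replicate 2, the longest list, or 88.0%, against 89.0% over all regions. Intervals cover counting error only. Support varied among the genes, from 51.9% of 27 regions at Cacna1d to 16.7% of 6 at Cacna1g.

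Fold ranks at the channel genes were also near those of all regions. The median mean percentile rank of the 112 regions was 45.8, against 42.2 for all 26862 regions with that support. For regions in all 3 lists it was 25.4 at the channel genes and 30.3 overall. Within the single lists the medians were 50.2, 28.2 and 48.0 in replicates 1, 2 and 3, against 47.2, 24.3 and 44.8 over all. Only 3 of the 112 (2.68%) had a mean rank within the best 5%, against 3.43% of all regions, and these were the best regions of Cacna1e (1.43), Cacna1d (2.19) and Cacna2d1 (2.22). The best regions of Cacna1a (5.54), Cacna1c (6.47) and Cacna1i (9.30) came next among the genes' leading regions in all 3 lists. Cacna1c thus had the most regions of the family but not the region of best mean rank. Median width was 690 bp at the channel genes and 686 bp overall.

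**Figure D4:**
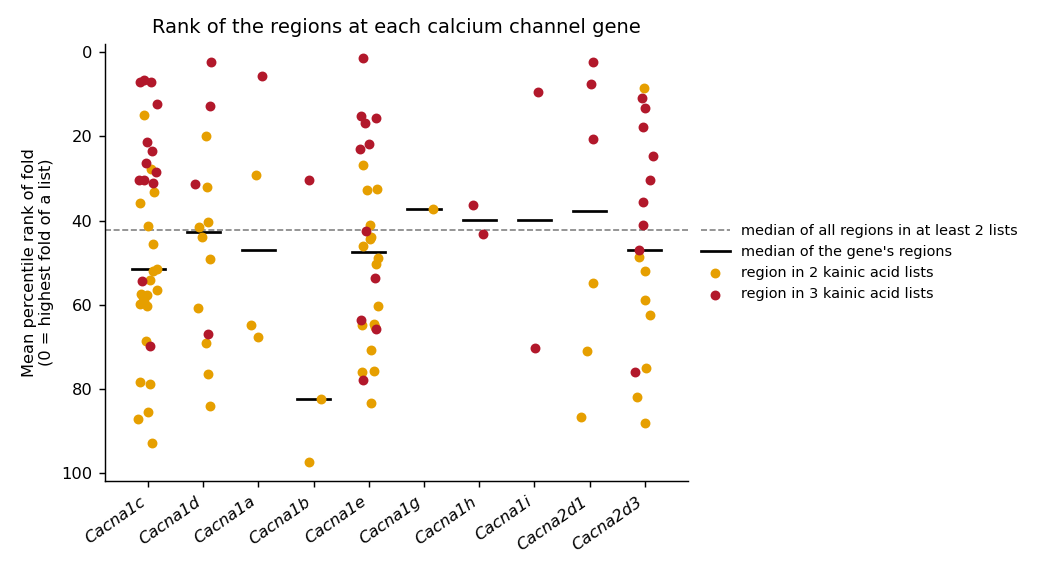
Mean percentile rank of fold for each region in 2 (orange) or 3 (red) kainic acid lists, by gene, with 0 for the highest fold at the top; black bars are gene medians and the dashed line is the median of all regions, 42.2. The regions of Cacna1c and Cacna1e cover nearly the whole scale, and those of Cacna1b have a median of 82.4.

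Of the 112 regions, 108 (96.4%) touched a channel gene's span, and the spans make up 94.6% of the length searched, so this share follows that length. Within 1 kb of a span end lay 3 regions (2.68%, interval 0.556 to 7.63), where such stretches are 1.08% of the length. At all protein-coding genes over 100 kb, 3.64% of regions with the same support were that close to an end, which is within the interval. Of the 105 regions at the 7 genes with a listed start, 4 lay within 1 kb of one, namely 2 at Cacna1c, 1 at Cacna1d and 1 at Cacna2d3. In saline replicate 2, 3 of the 13 regions at the channel genes (23.1%, interval 5.04 to 53.8) were within 1 kb of a span end, against 47.0% of its regions at long protein-coding genes. The difference between saline and kainic acid in this share was not tested at the channel genes, and the 2 intervals overlap. The gene table used has no exons, so a place inside a gene was not resolved into exon, intron or UTR.

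Saline and kainic acid shared few sites at these genes. Of the 112 regions, 108 had no saline peak, 96.4% (91.1 to 99.0), against 98.0% of all regions. The 4 shared ones were those named above at Cacna1a, Cacna1g, Cacna1h and Cacna1i. From the saline side, 4 of 13 regions (30.8%, 9.09 to 61.4) were in at least 2 kainic acid lists and 8 (61.5%, 31.6 to 86.1) in none. Over the whole list of saline replicate 2 the shares were 16.6% and 67.4%, both within those intervals.

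Other genes named as calcium channel subunits were counted the same way. They were taken by name, and whether each is part of a channel, as for the Cacng genes, was not examined. Of these 16 genes, 14 had a region in at least 2 kainic acid lists (40.0% of all protein-coding genes) and 9 had one in all 3 (23.9%). The median was 2 regions per gene and 2.16 per 100 kb, against 5 and 1.85 at the 10 channel genes. Of the 16 genes, 5 spanned over 100 kb. The most were at Cacnb2 (8) and Cacnb4 (6), which encode cytoplasmic β subunits that help channels reach the membrane, and at Cacna2d4 (6), an α2δ subunit. Cacnb3, another β subunit, and Cacng1, the γ subunit of skeletal muscle, had none. Of 16 listed regulators and scaffolds, 15 matched a gene. Of these, 10 had a region in at least 2 lists, against 40.0% of all protein-coding genes. The median of the 15 was 2 regions per gene and 0.740 per 100 kb, and 4 of them spanned over 100 kb. Rimbp2 (10), a presynaptic scaffold that binds the channels, Stac2 (6), an adaptor, and Ncs1 (5), a calcium sensor, had the most. Those without one were Akap5, a kinase anchor, and Gem, Rem1, Rem2 and Rrad, small GTP-binding proteins that inhibit the channels. These 5 genes span between 3.28 kb (Rrad) and 10.5 kb (Gem), far less than the pore genes.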

How the data were processed

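Peak lists of 3 saline and 3 kainic acid libraries were used. Per the submitters' processing notes, Trim Galore 0.6.4, Bowtie2 2.3.4.3 and MACS2 were run on build mm10; which cutoff and control were used is not given in the sources used here. Each deposited fold is a linear ratio, of a peak to its local background. The deposited −log10 p and −log10 q and the authors' score, which equals 10 times the −log10 q rounded down, also belong to 1 library each. None is scaled between libraries. Reads over a summit were solved from the deposited fold and −log10 p, as the whole number k with fold = (k + 1)/(λ + 1) and p the upper Poisson tail beyond k at background λ, a model inferred here. This was done for the strongest peak of each list in a region, and all 441 at the channel genes were solved within 0.001 in −log10 p, the lowest at 10 reads. Read totals are unknown.

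Gene spans and promoters came from RefSeq tables of GRCm38.p6. Coordinates are 1-based. Sequences under the peaks away from promoters were not analysed here. Counting, merging and solving were tested on simulated data (Python 3.11.15, pandas 2.3.3, SciPy 1.17.1). The 10 genes and the gene lists were chosen with earlier results of these data known. For each gene the best-ranked region in at least 2 kainic acid lists is named, with the 5 best in all 3 lists. Regions in at least 2 kainic acid lists with a saline peak or within 1 kb of a start are also named. Of regions with less support, only some with a saline peak or near a start are named. In the other lists the 3 genes with the most regions are named, and those with none where 5 or fewer. Alternatives covered the −log10 q, the reach, the merging, equal list lengths, the reference genes, the replicate block and each library left out.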

Additional observations from a re-analysis of the deposited data

How the results depend on the processing

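The difference in log10(number of peaks + 1) at the channel genes kept its direction in the 12 alternatives run for it, from 1.48 with a −log10 q of at least 10 to 2.09, and from 1.52 to 2.09 with single libraries left out. Its test could not pass 0.05, and its p-values (0.1 to 0.25) therefore carry no information on stability. With the replicate block, which pairs libraries by number, the difference was 1.71 (exact sign-flip permutation p = 0.25, the smallest that 3 pairs allow). For each protein-coding gene and library, the deviation of log2(number of peaks + 1) from the mean of its group was taken. For same-numbered libraries these deviations had correlations of 0.281, 0.275 and 0.0414 across genes. Differently numbered ones ran from -0.281 to 0.282, the latter for saline replicate 3 with kainic acid replicate 1. With only 7 and 2 peaks in saline replicates 1 and 3, these values cannot show pairing. The labels name no shared day or litter, so the numbers were not treated as pairs.

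The 112 regions became 64 and 35 with a −log10 q of at least 5 and 10, 46 when all 3 lists were required and 47 with equal list lengths. Leaving out 1 kainic acid library gave 46 to 108, as fewer lists allow fewer pairs: 46 without replicate 2 and 50 without replicate 3. The reach changed little (108 at 0 kb, 121 at 50 kb). The relative density of 1.86 was 1.72 both with a −log10 q of at least 10 and at a reach of 0 kb, 2.13 against all annotated genes and 1.70 against long ones. It was 1.53 without Cacna1c and 1.20 without Cacna1c and Cacna1e, which were chosen after seeing the data. The share of regions in at least 2 lists, 41.5%, was 51.5% with a −log10 q of at least 10 (41.6% over all regions), 53.4% with equal list lengths (55.4%) and 33.7% with summits within 200 bp (33.6%). It was 19.2% to 40.6% with 1 library left out (19.2% without replicate 3, where all regions gave 21.1%). The median rank of 45.8 (42.2 over all regions) was 25.4 in all 3 lists (30.3). It was 42.7, 34.5 and 32.8 without kainic acid replicates 1, 2 and 3 in turn, against 37.0, 37.6 and 33.7 over all regions. Apart from effects of fewer lists, the cause was not tested. Of 60 alternative counts for single genes, 34 moved by over 1.5 times, all to fewer regions. The difference in peak number kept its sign. The order of channel genes and all regions did not. The median rank, first above that of all regions, fell below it in all 3 lists and without kainic acid replicate 2 or 3. It stayed above with ranks by −log10 q, at a reach of 0 kb and without replicate 1. The share in at least 2 lists fell below that of all regions with equal list lengths, without replicate 2 (34.6% against 38.1%) and without replicate 3. It stayed above in the other settings.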
